A study of Mus musculus with 12 samples.

Results

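The genes described here are 10 antioxidant targets of NRF2: Hmox1, Nqo1, Gclc, Gclm, Gsr, Txnrd1, Srxn1, Prdx1, Aox1 and G6pdx. They are named together because they are textbook targets of that factor, although earlier results of these data were known when they were chosen. Their probe sets were found by the gene symbol of the array annotation. Of the 10 genes, 8 had probe sets of their own, 15 probe sets in all, out of 12393 genes and 22626 probe sets on the array. All 8 passed the filter on low values in both tissues. The 5 probe sets of Prdx1 were each listed with Gm21399 as well, so they give no value for Prdx1 alone. No expression value of G6pdx is used here, since no probe set was matched to its symbol, and only its promoter window was searched. RNA came from female nude NCR mice, a strain that lacks a working thymus, on day 7. The 4 groups were lung of tumor-bearing mice, lung of control mice, liver of tumor-bearing mice and liver of control mice, with 3 arrays each. Tumor-bearing mice carried orthotopic tumors of 4T1, a cell line from a mouse mammary carcinoma, and control mice were injected with PBS. Lung and liver came from the same 3 tumor-bearing and 3 control mice, and the tumor-bearing organs are called pre-metastatic in the titles.

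NRF2, the product of Nfe2l2, is a transcription factor that is kept low by KEAP1, an adaptor that hands it to a CUL3 ubiquitin ligase. Oxidants and electrophiles disable KEAP1, NRF2 then pairs with small MAF proteins (Maff, Mafg, Mafk) and binds antioxidant response elements, while BACH1 competes for the same sites and represses Hmox1 in particular. The targets make and recycle glutathione, keep thioredoxin and peroxiredoxins reduced, break down heme and detoxify quinones. In lung they are known from defence against inhaled oxidants, and in liver from the handling of drugs and their electrophilic products.

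The values are log2 GCRMA values as deposited, so a difference of 1 is a doubling on the array's scale. Arrays carried the markers of their labelled tissue, with the alveolar type II markers averaging 14.41 to 14.71 on lung arrays and 4.81 to 6.28 on liver arrays, while the hepatocyte markers averaged 15.73 to 15.87 on liver arrays. The same 8 hepatocyte markers, albumin and other secreted liver proteins among them, averaged 10.19, 4.66 and 4.94 in tumor-bearing lungs 1, 2 and 3, against 6.05, 4.18 and 11.36 in control lungs 1, 2 and 3. Lung tumor array 1 and lung control array 3 therefore stood apart, and lung values are given without them where that matters. Within a group arrays correlated at 0.989 to 0.996 over 22626 probe sets. The p-values rest on 3 arrays a group, and this number limits the precision.

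The upstream sequences of 4 of these genes are printed below, with the motifs found in them. The RefSeq promoter table (build GRCm38.p6) had windows for 7 of the 10 genes, 9 windows in all, and none for Hmox1, Gclc and Gsr. Each window searched was the 250 bases before a transcript start, read 5′ to 3′ along the gene's strand. On both strands 3 motifs were searched: the core of the antioxidant response element, TGACNNNGC; the stricter site of NRF2 with a small MAF protein, TGANTCAGC; and the AP-1 site TGANTCA, which lies inside the stricter site. They were in 10.2%, 1.02% and 6.75% of all 32851 promoter windows. Among the 9 windows of these genes the element core was in 4 (Gclm, 1 of the 3 of Txnrd1, Prdx1 and G6pdx), the stricter site in 2 (Srxn1 and Prdx1) and the AP-1 site in 3 (Srxn1, Prdx1 and Aox1). A match is only a string of letters, and its absence says only that these letters are not in this window. Gclm and Nqo1 are printed because their liver values lay on opposite sides of control, Aox1 because its lung arrays did not overlap, and Srxn1 because it holds the stricter site. Capitals mark the motifs found, the element core on the opposite strand in Gclm, AP-1 sites and the stricter site in Srxn1, and an AP-1 site in Aox1.
Gclm, chr3:122245307-122245556, plus strand: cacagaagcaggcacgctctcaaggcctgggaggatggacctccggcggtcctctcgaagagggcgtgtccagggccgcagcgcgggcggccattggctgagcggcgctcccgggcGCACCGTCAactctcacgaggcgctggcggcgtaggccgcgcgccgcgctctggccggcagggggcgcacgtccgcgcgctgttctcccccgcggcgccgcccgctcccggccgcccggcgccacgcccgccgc
Nqo1, chr8:107403206-107403455, minus strand: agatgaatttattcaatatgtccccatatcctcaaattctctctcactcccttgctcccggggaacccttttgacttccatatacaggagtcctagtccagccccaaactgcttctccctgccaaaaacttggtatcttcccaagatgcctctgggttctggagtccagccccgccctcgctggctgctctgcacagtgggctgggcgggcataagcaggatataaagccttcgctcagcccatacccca
Srxn1, chr2:152105274-152105523, plus strand: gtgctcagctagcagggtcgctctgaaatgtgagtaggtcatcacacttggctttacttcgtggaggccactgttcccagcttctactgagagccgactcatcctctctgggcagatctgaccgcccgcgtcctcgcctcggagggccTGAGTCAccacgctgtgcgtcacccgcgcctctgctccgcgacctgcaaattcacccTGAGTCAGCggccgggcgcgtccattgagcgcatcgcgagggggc
Aox1, chr1:58029719-58029968, plus strand: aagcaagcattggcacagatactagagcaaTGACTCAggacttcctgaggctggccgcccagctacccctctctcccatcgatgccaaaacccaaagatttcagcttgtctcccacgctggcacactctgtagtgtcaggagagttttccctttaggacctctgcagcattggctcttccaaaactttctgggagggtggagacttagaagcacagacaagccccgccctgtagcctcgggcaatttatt
In Gclm the core, GCACCGTCA as printed, began 134 bases before the start. The AP-1 letters of Aox1 began 220 bases before the start, those of Srxn1 102 and 45 bases before it, and the second of these is the beginning of the stricter site TGAGTCAGC. The window of Nqo1 held none of the 3.

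In lung, none of the 8 genes passed the test between tumor-bearing and control mice, and 7 of the 8 had lower means in tumor-bearing lungs, as 53% of all genes tested did. The 2 with the largest differences were Hmox1 and Aox1, at 1.81-fold and 1.79-fold lower on the array's scale. In detail, 0 of 8 genes passed an adjusted p of 0.05 in limma, against 0.734% of the 7907 genes tested (0.114% lower), and 2 of 8 had an unadjusted p under 0.05, both lower, against 13.2% of all genes (6.46% lower). Tumor and control arrays lay wholly apart for 3 of 8 genes, all lower in tumor-bearing lungs, against 18.6% of all genes (9.57% lower). The median difference over the 8 genes was -0.23 (log2), against -0.01 over all genes tested. Lower means numbered 7 of 8 also with arrays centred on their medians and without lung tumor array 1 and lung control array 3, and 8 of 8 after a further quantile normalization, where Nqo1 turned to -0.01.

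In liver the targets split instead. Hmox1 and Gclm had higher values in all tumor-bearing livers than in any control liver, and Nqo1 had lower ones. Again 0 of 8 genes passed in limma, against 1.87% of the 7712 genes tested, and 3 of 8 had an unadjusted p under 0.05, against 25.9% of all genes. Tumor and control arrays lay apart for 3 of 8 genes, against 33.1% of all genes, so this share was near the background. The median difference over the 8 genes was 0.12, against -0.07 over all genes. Higher means numbered 5 of 8 as deposited, against 39.7% of all genes. Gsr is counted there by its brighter probe set, and its other one was lower in tumor-bearing livers (-0.33). With arrays centred on their medians 7 of 8 means were higher, where Txnrd1 and Aox1 turned above 0. That centring moved the median of all genes in liver to 0.05.

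**Figure D1:**
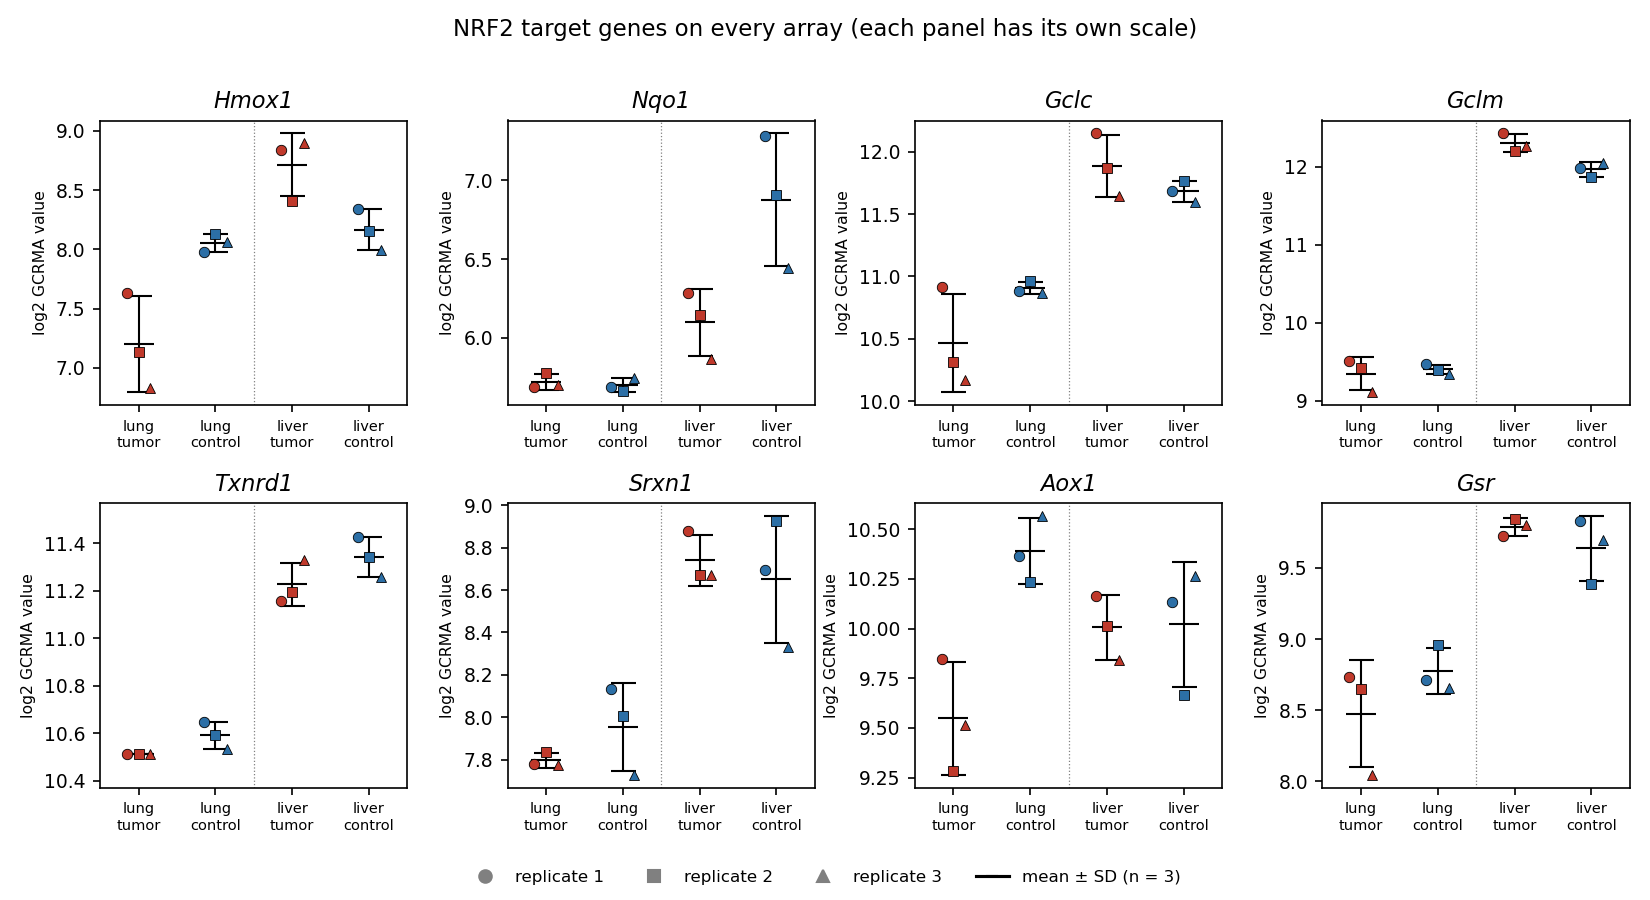
Log2 GCRMA values (y axis, a separate scale in each panel) of the 8 genes with probe sets of their own in tumor-bearing lung, control lung, tumor-bearing liver and control liver (x axis); points are single arrays shaped by replicate, and bars are the mean ± SD of 3 arrays. In lung Hmox1 and Aox1 are lower on all 3 tumor arrays than on any control array, and in liver Hmox1 and Gclm are higher and Nqo1 lower on all 3 tumor arrays.

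Hmox1 (probe set 1448239_at) codes for heme oxygenase 1, which splits heme into biliverdin, carbon monoxide and iron. It read 7.63, 7.13 and 6.83 in tumor-bearing lungs, against 7.98, 8.13 and 8.06 in control lungs. The tumor-bearing lungs were spread widely, and the highest of them, array 1, was the one rich in hepatocyte transcripts, while the controls lay close together and above them all. The difference was -0.86 ± 0.21 (SE; 95% interval -1.37 to -0.34; limma adjusted p = 0.172), and -1.07 without lung tumor array 1 and lung control array 3. In liver Hmox1 read 8.84, 8.41 and 8.90 in tumor-bearing mice, against 8.34, 8.16 and 8.0 in controls. Here the tumor-bearing arrays were the higher ones, with array 2 only just above the highest control. The difference was 0.55 ± 0.16 (SE; interval 0.14 to 0.96; adjusted p = 0.114). In bulk tissue, fewer cells of a type and less RNA per cell cannot be told apart, and this holds for every gene below.

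Nqo1 (1423627_at) codes for a quinone reductase that detoxifies quinones by moving both electrons at once. Its lung values were 5.69, 5.78 and 5.70 in tumor-bearing mice, against 5.69, 5.66 and 5.75 in controls, and the groups could not be separated. The lung difference was 0.02 ± 0.08 (SE; interval -0.17 to 0.22; adjusted p = 0.934). Nqo1 in liver read 6.28, 6.15 and 5.86 in tumor-bearing mice, against 7.28, 6.91 and 6.44 in controls. Each control liver was above each tumor-bearing liver, although the lowest control came near them. The liver difference was -0.78 ± 0.24 (SE; interval -1.36 to -0.19; adjusted p = 0.117). With all 12 arrays in 1 fit, Nqo1 in liver passed (limma adjusted p = 0.0332). That fit takes the spread from lung too, where Nqo1 varied less. Its SD was 0.05 in tumor-bearing and 0.04 in control lungs, against 0.21 and 0.42 in liver.

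Glutamate-cysteine ligase makes the first and rate-limiting step of glutathione synthesis, with Gclc coding for the catalytic and Gclm for the modifier subunit. Gclc (1424296_at) read 10.92, 10.32 and 10.17 in tumor-bearing lungs, against 10.88, 10.96 and 10.87 in control lungs. Tumor-bearing lungs 2 and 3 were below every control, while lung 1, rich in hepatocyte transcripts, lay among the controls. The difference was -0.44 ± 0.20 (SE, limma adjusted p = 0.439) and -0.68 without lung tumor array 1 and lung control array 3, which moves it by over 1.5 times. Its other probe set (1455959_s_at) gave -0.44 in lung as well. Gclc in liver read 12.14, 11.87 and 11.64 in tumor-bearing mice, against 11.69, 11.76 and 11.59 in controls, so the groups overlapped (0.20 ± 0.14 SE, adjusted p = 0.409).

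Gclm (1418627_at), whose promoter is printed above, read 9.51, 9.42 and 9.11 in tumor-bearing lungs, against 9.46, 9.40 and 9.35 in control lungs. Only tumor-bearing lung 3 was below the controls (-0.06 ± 0.13 SE, interval -0.37 to 0.25, limma adjusted p = 0.884), and without it the difference was 0.06. Without lung tumor array 1 and lung control array 3 it was -0.17. In liver Gclm read 12.43, 12.20 and 12.27 in tumor-bearing mice, against 11.98, 11.87 and 12.05 in controls. All tumor-bearing livers were above all controls, by 0.33 ± 0.09 (SE; interval 0.10 to 0.56), which is 1.26-fold (adjusted p = 0.104).

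Gsr codes for glutathione reductase, which turns oxidised glutathione back with NADPH. Its brighter probe set (1421816_at) read 8.74, 8.65 and 8.05 in tumor-bearing lungs, against 8.71, 8.96 and 8.65 in control lungs. Tumor-bearing lung 3 was the low one, and the groups overlapped (-0.30 ± 0.21 SE, limma adjusted p = 0.608). The difference was -0.08 without that array, and -0.49 without lung tumor array 1 and lung control array 3. Liver values were 9.72, 9.84 and 9.80 in tumor-bearing mice, against 9.83, 9.39 and 9.70 in controls, again overlapping (0.15 ± 0.13 SE, adjusted p = 0.493). The other probe set (1421817_at) disagreed in liver. There it differed by -0.33 ± 0.13 (SE, adjusted p = 0.187 in the fit of all probe sets) with no overlap between groups, so no direction is given for Gsr in liver.

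Txnrd1 codes for cytosolic thioredoxin reductase, the selenoenzyme that reduces thioredoxin. The probe set that stood for it (1421529_a_at) read 10.51 on all 3 tumor-bearing lungs, against 10.65, 10.59 and 10.54 in control lungs. The tumor-bearing lungs were all just under the lowest control, but the difference was only -0.08 ± 0.08 (SE; interval -0.27 to 0.11; limma adjusted p = 0.719). Txnrd1 in liver read 11.16, 11.20 and 11.33 in tumor-bearing mice, against 11.43, 11.34 and 11.26 in controls (-0.12 ± 0.08 SE, adjusted p = 0.429). Tumor-bearing liver 3 lay among the controls. Of its other probe sets, 1424487_x_at was at the lowest value of 2.04 on every array, and 1424486_a_at averaged under 4 in both groups of lung. In liver 1424486_a_at differed by 0.27 ± 0.26 (SE), in the opposite direction to the main probe set.

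Srxn1 codes for sulfiredoxin, which repairs peroxiredoxins that were oxidised too far. Its main probe set (1426875_s_at) read 7.78, 7.84 and 7.78 in tumor-bearing lungs, against 8.13, 8.0 and 7.73 in control lungs (-0.16 ± 0.12 SE, limma adjusted p = 0.650). The tumor-bearing lungs were nearly equal, and control lung 3 fell below them. Liver values were 8.88, 8.67 and 8.67 in tumor-bearing mice, against 8.69, 8.93 and 8.33 in controls (0.09 ± 0.17 SE, adjusted p = 0.761), with the highest and the lowest value both in controls. Probe set 1451680_at of Srxn1 gave -0.41 in lung and 0.23 in liver, with overlapping groups in both. Probe sets 1419942_at and 1425351_at averaged under 4 in both groups of lung. The stricter NRF2 and small MAF site in its window thus stood beside differences within the spread of the arrays in both tissues. Prdx1 codes for a peroxiredoxin that removes hydrogen peroxide. Its 5 probe sets, listed with Gm21399 too, were at 12.91 to 15.35 on every array, and their differences ran from -0.02 to 0.08 in lung and from -0.07 to 0.20 in liver. The smallest of their adjusted p-values in the fit of all probe sets was 0.474.

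Aox1 (1419435_at) codes for an aldehyde oxidase, a molybdenum enzyme that oxidises aldehydes and nitrogen heterocycles. It read 9.85, 9.28 and 9.52 in tumor-bearing lungs, against 10.36, 10.24 and 10.57 in control lungs. All tumor-bearing lungs were below all controls, with a gap between the groups wider than the spread among the controls. The difference was -0.84 ± 0.17 (SE; interval -1.26 to -0.42; limma adjusted p = 0.122). It was -0.90 without lung tumor array 1 and lung control array 3, and with all 12 arrays in 1 fit Aox1 passed (adjusted p = 0.0453). Aox1 in liver read 10.17, 10.01 and 9.84 in tumor-bearing mice, against 10.13, 9.66 and 10.27 in controls. There the groups overlapped fully (-0.02 ± 0.18 SE, interval -0.47 to 0.44, adjusted p = 0.968), and the sign turned to 0.10 with arrays centred on their medians.

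**Figure D2:**
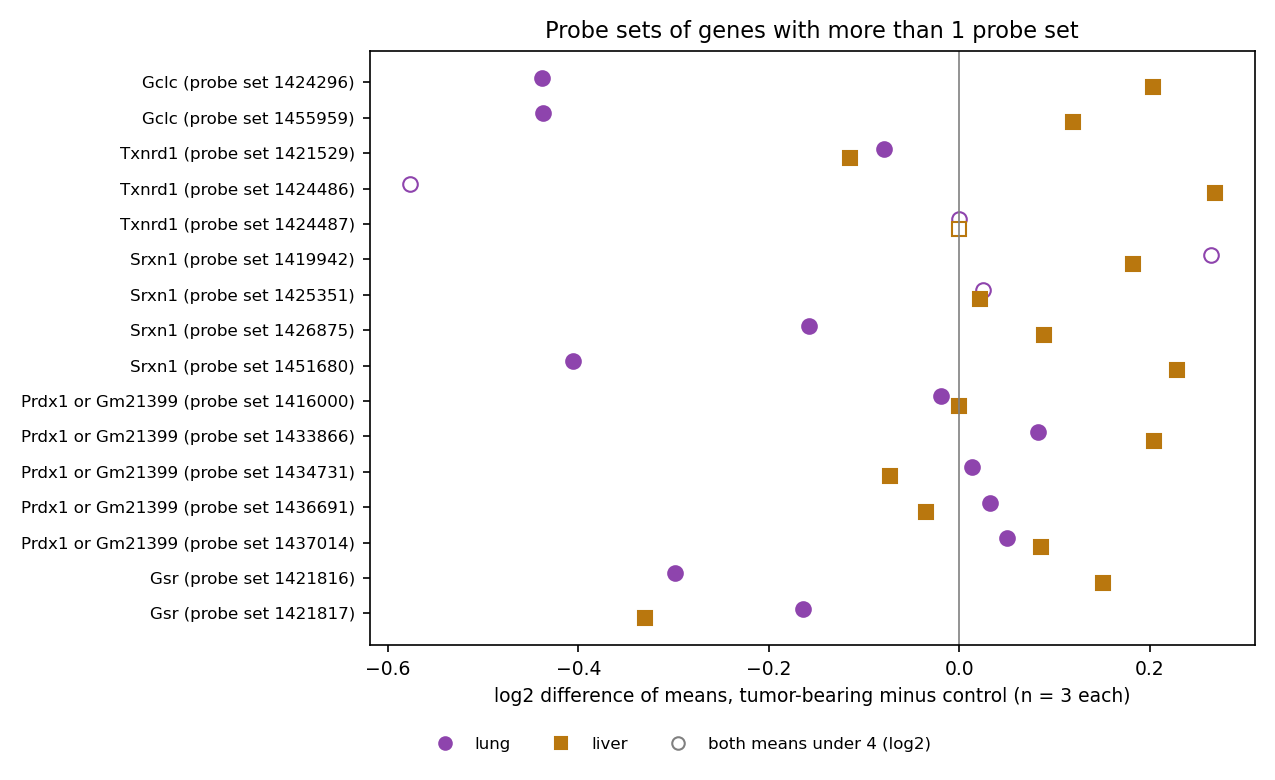
Log2 difference of group means, tumor-bearing minus control (x axis), for each probe set of the genes that have more than 1 (y axis), in lung (circles) and liver (squares), with 3 arrays a group; open symbols are probe sets whose means were under 4 in both groups. Both Gclc probe sets lie at -0.44 in lung, while the Gsr probe sets lie at 0.15 and -0.33 in liver.

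Hmox1 was the 1 gene of the 8 that passed the test of a difference between its lung change and its liver change. The change in lung was -0.86 and that in liver 0.55, a difference of -1.41 ± 0.28 (SE; interval -2.03 to -0.78; limma interaction, adjusted p = 0.0407). So 1 of 8 genes passed, against 1.55% of the 8433 genes tested (0.522% with a lower and 1.03% with a higher change in lung). The direction held in every setting tried, but the call rested on all arrays together. It was kept without liver tumor array 2 or lung tumor array 1, and lost without any of the other 10 arrays (adjusted p between 0.0143 and 0.0951 over the 12), and lost without a filter on low values (0.0791). Without both lung tumor array 1 and lung control array 3 the difference was -1.62 (adjusted p = 0.0336). The fit treats lung and liver arrays as independent samples although they came from the same mice.

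Of the 7 others, 5 had a lower change in lung than in liver and 2 a higher one, and 0 passed. Gsr is among the 5 by its brighter probe set, while its other one changed by -0.16 in lung and -0.33 in liver. Aox1 differed by -0.83 ± 0.26 (SE, limma adjusted p = 0.156) and Gclc by -0.64 ± 0.26 (adjusted p = 0.246). Nqo1 differed the other way, by 0.80 ± 0.26 (SE; interval 0.22 to 1.38; adjusted p = 0.161). It passed without liver control array 3 alone (1.02, adjusted p = 0.0469). For Txnrd1 the difference was 0.04 with an interval of -0.22 to 0.29.

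**Figure D3:**
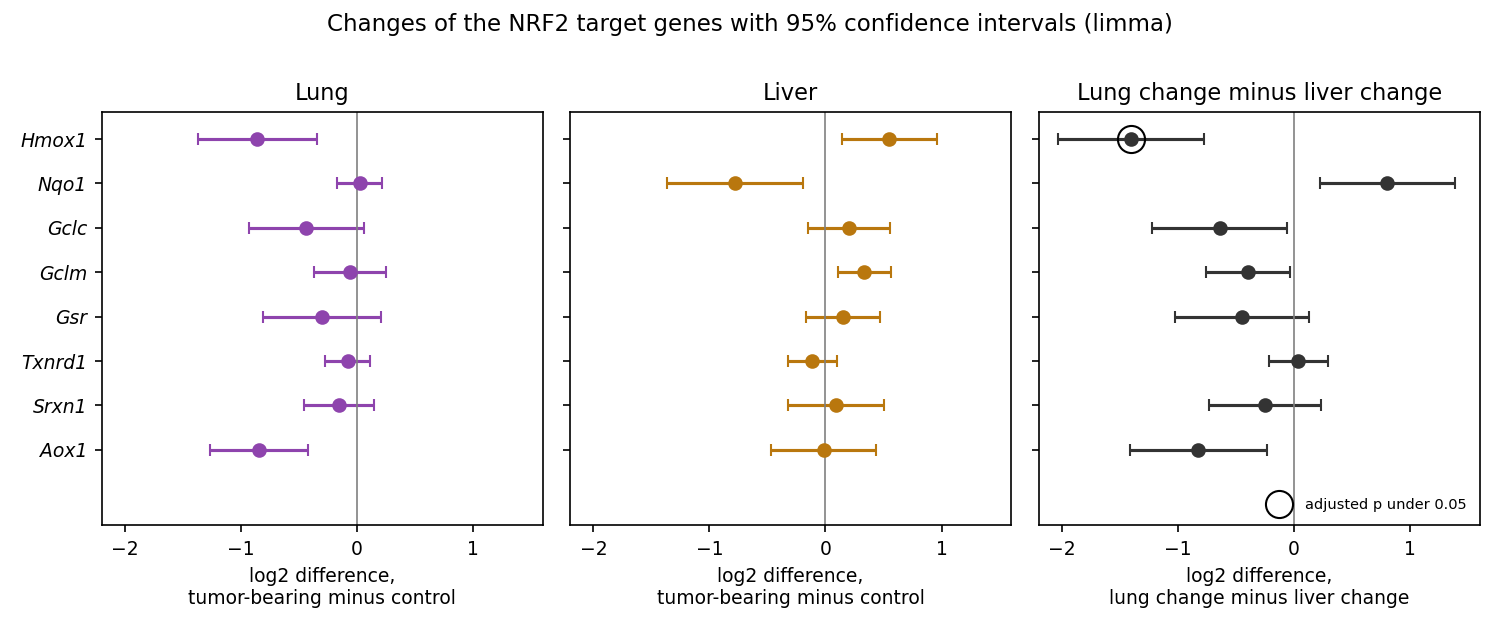
Log2 differences with 95% confidence intervals from limma (x axis) for the 8 genes (y axis): tumor-bearing minus control in lung, the same in liver, and the lung change minus the liver change, each from 3 arrays a group. A ring marks an adjusted p under 0.05, which only Hmox1 reaches, in the last panel, at -1.41.

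In control mice, most of these genes were lower in lung than in liver. In that comparison 6 of 8 passed as lower in lung, against 35.5% of the 8270 genes tested that passed as lower and 81.1% that passed in either direction. Gclm averaged 9.40 ± 0.06 in control lung and 11.96 ± 0.09 in control liver (SD, n = 3 each), 5.9-fold lower in lung (limma adjusted p = 1.16e-06). Nqo1 was 2.26-fold lower in lung (adjusted p = 0.00252), Gsr 1.82-fold, Gclc 1.71-fold, Txnrd1 1.68-fold and Srxn1 1.62-fold. The 2 genes that did not pass were Hmox1, at -0.11 (interval -0.38 to 0.16), and Aox1, at 0.37 (interval -0.08 to 0.82). In lung control array 3, which had the highest hepatocyte marker mean, Gclm read 9.35, the lowest of the control lungs. Gclc, Gsr, Txnrd1 and Srxn1 were lowest there too, while Nqo1 was highest, at 5.75 against 5.69 and 5.66. The part of hepatocyte RNA in these lung values was not tested.

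The gene of NRF2 itself, Nfe2l2, gave values on the same sides as Hmox1. It read 12.66, 12.69 and 12.60 in tumor-bearing lungs, against 12.90, 12.94 and 12.87 in control lungs. No tumor array reached a control array (-0.26 ± 0.08 SE, limma adjusted p = 0.253). Nfe2l2 in liver read 11.39, 11.21 and 11.42 in tumor-bearing mice, against 11.07, 10.97 and 10.83 in controls, and there the tumor-bearing mice were the higher ones (0.38, adjusted p = 0.0962). The change in lung minus that in liver was -0.64 ± 0.13 (SE; interval -0.92 to -0.36; adjusted p = 0.0407). Leaving out any 1 array except liver tumor array 2 ended that call (adjusted p from 0.0318 to 0.0926 over the 12), and so did leaving out both lung tumor array 1 and lung control array 3 (0.109).

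Of the 9 NRF2 regulators tested, 0 passed in either tissue, against 0.734% of all genes in lung and 1.87% in liver. Lower means numbered 7 of 9 in lung and 4 of 9 in liver, against 53% and 60.2% of all genes, with the same counts when arrays were centred on their medians. The largest differences were those of Maff, a small MAF gene, and Nfe2l2 in lung, and of Maff and Nfe2l1, an NRF2 relative, in liver. Maff read 8.97, 8.75 and 8.57 in tumor-bearing lungs, against 9.29, 9.27 and 8.76 in control lungs (-0.34, limma adjusted p = 0.512). In liver Maff read 6.22, 6.75 and 5.62 in tumor-bearing mice, against 4.47, 5.79 and 4.86 in controls, a wide spread with some overlap (1.16, adjusted p = 0.168). Nfe2l1 in liver lay at 7.45, 7.98 and 7.63 in tumor-bearing mice, against 8.5, 8.55 and 8.08 in controls, without overlap (-0.69, adjusted p = 0.102). Keap1 differed by -0.10 in lung and -0.36 in liver, and Bach1 by 0.06 in lung and 0.22 in liver (adjusted p from 0.148 to 0.813).

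Osgin1, an oxidative stress-induced growth inhibitor gene that NRF2 is known to induce, showed the largest such contrast among the pathway genes. Tumor-bearing lungs read 7.10, 7.17 and 7.31, against 8.39, 7.91 and 7.86 in control lungs, all of them below the controls (-0.86, limma adjusted p = 0.102). In liver it read 12.22, 11.06 and 11.08 in tumor-bearing mice, against 10.20, 9.70 and 9.88 in controls, all of them above the controls (1.53, adjusted p = 0.0790). The change in lung minus that in liver was -2.39 ± 0.41 (SE; interval -3.31 to -1.47; adjusted p = 0.0234). That call was lost without liver control array 2, lung control array 1 or lung control array 2 (adjusted p from 0.0116 to 0.0606 over the 12 arrays left out), without both lung tumor array 1 and lung control array 3 (0.0786), and without a filter on low values (0.0531).

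Among the other enzymes of phase II metabolism and further NRF2 targets, 25 were tested in lung and 23 in liver. In lung 1 of 25 passed, Gsta3, as lower, against 0.734% of all genes in either direction and 0.114% as lower. In liver 0 of 23 passed, against 1.87%. Lower means numbered 17 of 25 in lung and 17 of 23 in liver, against 53% of all genes tested in lung and 60.2% in liver, and with arrays centred on their medians 16 and 14. Gsta3, an alpha class glutathione transferase, read 12.11, 12.24 and 12.19 in tumor-bearing lungs, against 12.77, 12.88 and 12.79 in control lungs. It fell by 0.63 on the log2 scale (± 0.085 SE, limma adjusted p = 0.0448), a call that ended without any 1 of the 6 arrays (adjusted p from 0.0978 to 0.170). It ended as well without a filter on low values (0.0745), with the mean of all its probe sets (0.0817), with arrays centred on their medians (0.0536) and without both lung tumor array 1 and lung control array 3 (0.345). Aldh3a1, an aldehyde dehydrogenase of surface epithelia, read 5.02, 4.23 and 3.67 in tumor-bearing lungs, against 5.13, 5.15 and 5.50 in control lungs (-0.96, adjusted p = 0.326). Gstm3, a mu class transferase, had the lowest liver difference of this list, reading 11.14, 11.39 and 10.69 in tumor-bearing livers, against 12.30, 12.29 and 11.66 in control livers (-1.01, adjusted p = 0.0903).

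Genes that make and use glutathione included 2 that rose in liver, of 11 tested, against 0.635% of all genes, and 0 of 11 passed in lung, against 0.734%. Both that rose code for enzymes that break down glutathione or its gamma-glutamyl products, not for its synthesis. Chac1, a glutathione-specific gamma-glutamylcyclotransferase that ATF4 is known to induce, read 8.49, 8.71 and 8.46 in tumor-bearing livers, against 7.34, 7.57 and 7.68 in control livers (1.02 ± 0.12 SE, limma adjusted p = 0.0338). Ggct, gamma-glutamylcyclotransferase, read 8.25, 8.08 and 8.16 in tumor-bearing livers, against 7.44, 7.42 and 7.42 in control livers (0.74 ± 0.07 SE, adjusted p = 0.0323). Each call ended when any 1 of the 6 liver arrays was left out, with adjusted p from 0.0604 to 0.129 for Chac1 and from 0.0568 to 0.129 for Ggct. The Chac1 call ended also without a filter on low values (0.0672). Averaged over all its probe sets, Ggct differed by 0.37 (adjusted p = 0.0509). In lung the largest difference in this list was that of Gpx2, an epithelial glutathione peroxidase, at 7.78, 7.10 and 6.31 in tumor-bearing mice, against 8.10, 7.85 and 7.97 in controls (-0.91, adjusted p = 0.368). That difference was -0.53 without lung tumor array 3, the lowest of them. Glrx, the thiol transferase glutaredoxin, came next in lung at 0.42 (adjusted p = 0.543), with overlapping groups.

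Heme and iron genes around Hmox1 included 1 that rose in lung, of 11 tested, against 0.62% of all genes, and 0 of 11 passed in liver, against 1.87%. Slc40a1 codes for ferroportin, the exporter that carries out of cells the iron that heme oxygenase sets free. It read 8.45, 8.91 and 8.24 in tumor-bearing lungs, against 6.25, 6.06 and 6.73 in control lungs, far apart and without overlap. It rose by 2.18 ± 0.24 (log2, SE; limma adjusted p = 0.0273), a call that ended when any 1 of the 6 lung arrays was left out (adjusted p from 0.0542 to 0.121). It ended as well without a filter on low values (0.126) and without both lung tumor array 1 and lung control array 3 (0.206), where the difference was 2.42. In liver Slc40a1 read 13.27, 13.38 and 13.31 in tumor-bearing mice, against 13.01, 12.82 and 12.69 in controls (0.48, adjusted p = 0.0687). Its change in lung was larger than that in liver by 1.71 ± 0.28 (SE; interval 1.08 to 2.33; adjusted p = 0.0187), so ferroportin and Hmox1 differed between the tissues in opposite directions. That call was lost without liver control array 1 or lung control array 1 (adjusted p up to 0.0532). Cd163, the scavenger receptor for hemoglobin on macrophages, read 5.32, 4.04 and 3.35 in tumor-bearing lungs, against 5.46, 5.27 and 5.66 in control lungs (-1.23, adjusted p = 0.368). That difference was -0.78 without lung tumor array 3, and in liver it was -0.36 (adjusted p = 0.216). Of the 5 macrophage and monocyte markers tested in lung, Cd163 among them, 3 had higher means and 2 lower, with a median difference of 0.04. Adgre1, the gene of F4/80 (0.46, adjusted p = 0.279), was higher on all tumor arrays than on any control array. So was Csf1r, the receptor for macrophage colony-stimulating factor (0.39, adjusted p = 0.102), and so were 8.99% of all genes. Cd68 read 10.43, 9.52 and 9.55 in tumor-bearing lungs, against 9.74, 10.35 and 9.51 in control lungs. Chil3 read 14.27, 13.67 and 13.82, against 13.82, 13.8 and 14, so both overlapped.

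**Figure D4:**
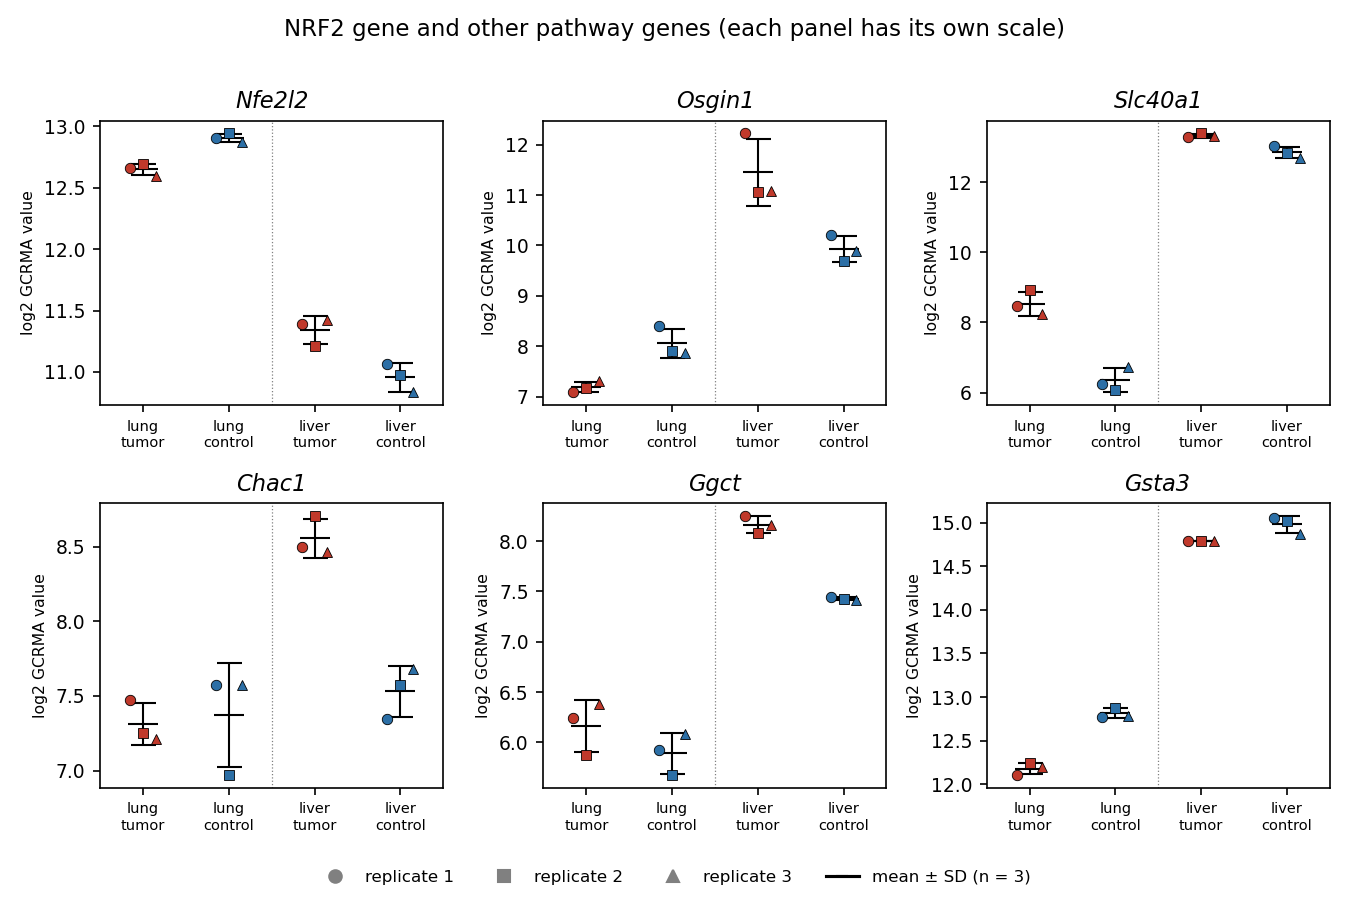
Log2 GCRMA values (y axis) of Nfe2l2, Osgin1, Slc40a1, Chac1, Ggct and Gsta3 in tumor-bearing and control lung and liver (x axis). Each panel has a separate scale. These are pathway genes named as past a threshold in a tissue or between tissues, and Trib3 is not drawn. Points are single arrays shaped by replicate, and bars are the mean ± SD of 3 arrays. Nfe2l2 and Osgin1 are lower on all tumor arrays in lung and higher on all tumor arrays in liver, while Slc40a1 is higher on all tumor arrays in both tissues.

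The thioredoxin and peroxiredoxin relatives (10 tested in each tissue), the enzymes that supply NADPH (8 in each), those that remove superoxide and peroxide (6 in each) and the molybdenum enzymes related to Aox1 (7 in each) had 0 genes past the threshold in either tissue, against 0.734% of all genes in lung and 1.87% in liver. Median differences of these lists lay between -0.09 and 0.15 in lung and between -0.16 and 0.02 in liver, against -0.01 and -0.07 over all genes. The 2 largest differences of each list follow. Among thioredoxin relatives they were Txnrd3, the testis-rich thioredoxin reductase (0.35, limma adjusted p = 0.359), and Prdx4, the peroxiredoxin of the endoplasmic reticulum (0.27, adjusted p = 0.796), in lung. In liver they were Txnrd2, the mitochondrial thioredoxin reductase (-0.28, adjusted p = 0.161), and Prdx4 again (0.28, adjusted p = 0.451). Among NADPH enzymes they were Idh1, an isocitrate dehydrogenase (-0.47, adjusted p = 0.409), and Pgls, of the pentose phosphate pathway (0.26, adjusted p = 0.578), in lung. In liver they were Idh2, the mitochondrial isocitrate dehydrogenase (-0.62, adjusted p = 0.183), and Me1, malic enzyme and a known NRF2 target (-0.53, adjusted p = 0.0770). Of the superoxide and peroxide list, Msrb1, a selenoprotein that repairs oxidised methionine (0.60, adjusted p = 0.209), led in lung and Sod3, the extracellular superoxide dismutase (0.47, adjusted p = 0.0529), in liver. Sod2, the mitochondrial superoxide dismutase, was second in both tissues, at -0.17 in lung (adjusted p = 0.710) and -0.24 in liver (adjusted p = 0.142). Among molybdenum enzymes they were Mocos, which sulfurates the molybdenum cofactor (0.63, adjusted p = 0.258), and Suox, sulfite oxidase (-0.43, adjusted p = 0.453), in lung. In liver they were Aox3, the neighbour and relative of Aox1 (0.84, adjusted p = 0.148), and Mocs1, which acts early in making the cofactor (-0.44, adjusted p = 0.355). Mocos was the 1 of these named genes whose tumor-bearing arrays lay above all controls in both tissues. It read 7.08, 6.52 and 6.89 in tumor-bearing lungs, against 6.12, 6.0 and 6.49 in control lungs, and 9.69, 9.35 and 9.23 in tumor-bearing livers, against 9.18, 9.04 and 8.95 in control livers.

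Hmox1 and Chac1 are also driven by heat shock factor or ATF4 in other settings, so 9 genes of those responses were set beside them in each tissue, and 0 passed, against 0.734% of all genes in lung and 1.87% in liver. Lower means numbered 8 of 9 in lung and 8 of 9 in liver (7 of 9 in liver with arrays centred on their medians), against 53% and 60.2% of all genes. The count pools both responses, and the 1 gene with a higher mean was on the ATF4 side in each tissue. These were Atf4 in lung (0.33, limma adjusted p = 0.467) and its target Trib3 in liver (0.86, adjusted p = 0.201). Atf4 in liver differed by -0.05 (adjusted p = 0.846) and Ddit3, another gene of that response, by -1.36 (adjusted p = 0.297). Hsph1, a chaperone gene, read 9.72, 10.92 and 11.92 in tumor-bearing lungs, against 13.04, 12.73 and 12.70 in control lungs (-1.97, limma adjusted p = 0.204). In liver it read 9.29, 10.83 and 11.51 in tumor-bearing mice, against 12.53, 12.24 and 11.95 in controls (-1.69, adjusted p = 0.142). The tumor-bearing arrays of Hsph1 were lower than all controls and widely spread in both tissues, with array 1 the lowest and array 3 the highest each time. Hspa1a, an inducible HSP70 gene, differed by -1.05 in lung (adjusted p = 0.613) and -1.49 in liver (adjusted p = 0.495), with overlap in both. Hmox1 in tumor-bearing lungs had array 1 the highest and array 3 the lowest. In tumor-bearing livers Hmox1 had array 3 the highest and array 2 the lowest (8.84, 8.41 and 8.90). The part of heat shock RNA in the Hmox1 values was not tested.

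Averaged over the 8 genes, with each gene centred on its tissue's mean, tumor-bearing lungs 1, 2 and 3 stood at 0.03, -0.19 and -0.35, against 0.18, 0.19 and 0.14 in control lungs. Lung tumor array 3 was thus the lowest. Tumor-bearing livers stood at 0.13, -0.03 and -0.03, against 0.10, -0.07 and -0.12 in control livers, with array 1 the highest of each group. Over the 12 arrays the genes whose centred values ran most like this mean, of 8420 compared, were Rnf186 (Pearson r = 0.926), Nrd1 (0.916), Reep6 (0.909), Rfx2 (0.908) and Slc44a4 (0.888). Within lung alone their r lay between 0.94 (Rfx2) and 0.978 (Rnf186), and within liver between 0.427 (Reep6) and 0.902 (Rnf186), over 6 arrays each. These are descriptions of 12 arrays that share groups, given without a test.

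Other cell types moved with the groups in lung. The 9 neutrophil markers averaged 9.97, 10.28 and 9.58 in tumor-bearing lungs, against 5.16, 6.16 and 5.56 in control lungs, and 9 of 9 had higher means. Of these 5 rose, Camp, Ltf, Ngp, Cd177 and Mmp8 (limma adjusted p from 0.00163 to 0.0273), against 0.62% of all genes. Camp, Ltf, Cd177, Mmp8 and Cxcr2 were above 4 (log2) only on tumor-bearing lungs. They passed the filter only through the group where they are high, so both counts are descriptions and not a test. The 3 B cell markers with probe sets averaged 6.0, 6.49 and 5.88 in tumor-bearing lungs, against 3.51, 3.52 and 4.23 in control lungs. Of the 2 tested, Cd79b, a part of the B cell receptor, rose by 2.16 (adjusted p = 0.00163), and Ms4a1, the gene of CD20, differed by 4.09 (adjusted p = 0.0601). Without both lung tumor array 1 and lung control array 3, these calls ended, as did all others in lung. Macrophage and monocyte markers averaged 6.64 to 7.06 in tumor-bearing lungs and 6.85 to 6.88 in control lungs. Airway markers averaged 9.90 to 10.10 in tumor-bearing lungs and 10.22 to 10.71 in control lungs. Of the airway markers, Foxj1, a gene of ciliated cells, differed by -2.31 (adjusted p = 0.174), while the club cell genes Scgb1a1, Scgb3a2 and Cyp2f2 differed by 0.04, -0.24 and -0.10. Endothelial markers averaged 12.54 to 12.77 in tumor-bearing lungs and 12.35 to 12.65 in control lungs. Cardiac muscle markers averaged 6.93, 10.57 and 9.78 in tumor-bearing lungs, against 4.93, 10.63 and 11.53 in control lungs, so arrays with high and with low levels of these markers occurred in both groups. In liver the neutrophil markers averaged 4.50 to 4.76 in tumor-bearing mice and 3.16 to 4.14 in controls, with the defining granule genes Ltf and Camp at 2.04 to 2.40 on every array. Of the 4 neutrophil genes bright enough to be tested in liver, 3 had higher values on all tumor-bearing livers than on any control liver. This held for 10.4% of all genes, and none of the 4 passed. S100a8 read 10.42, 8.81 and 9.92 in tumor-bearing livers, against 2.56, 8.02 and 5.95 in control livers (4.21, adjusted p = 0.138). S100a9 differed by 3.13 (adjusted p = 0.0817) and Ngp by 0.72 (adjusted p = 0.129). The other gene tested, Csf3r, differed by 0.04 (adjusted p = 0.923), with overlapping groups. Of the 2 erythroid markers tested in liver, Car1 fell by 1.80 on the log2 scale (limma adjusted p = 0.0484), against 1.23% of all genes that passed as lower. Alas2, the other, differed by -0.15 (adjusted p = 0.800). The Car1 call ended when any 1 of the 6 liver arrays was left out. The part of these cell types in the values of the 8 genes was not tested.

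**Figure D5:**
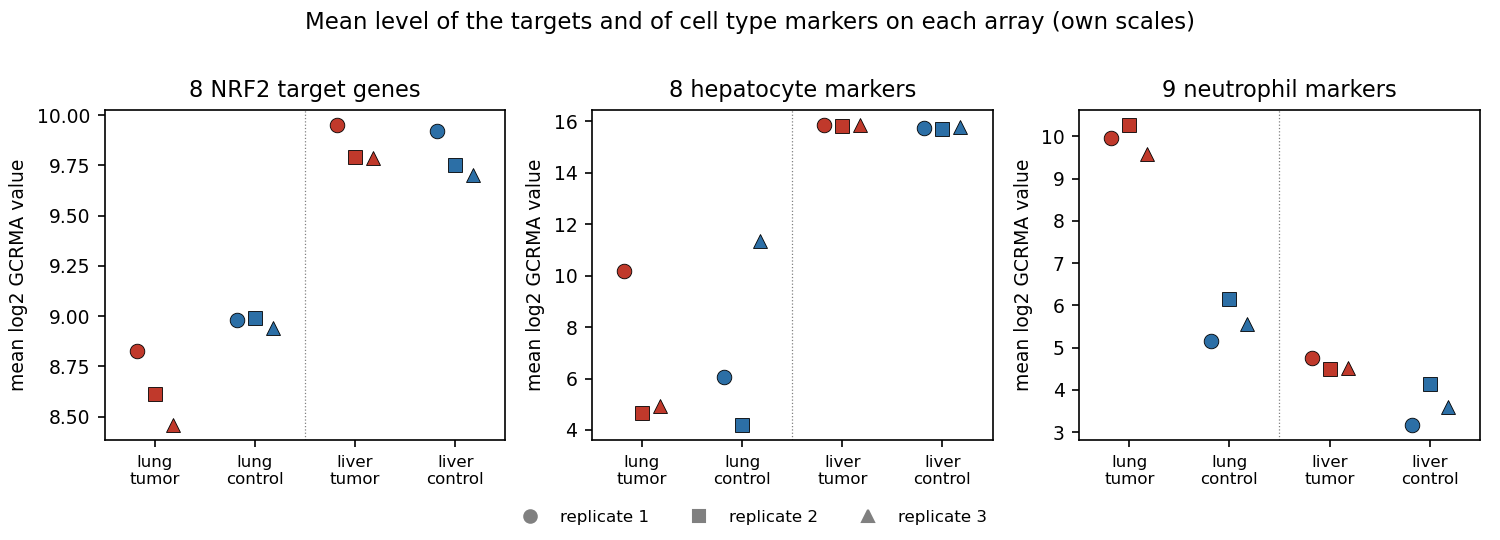
Mean log2 GCRMA value (y axis, a separate scale in each panel) of the 8 NRF2 target genes, of 8 hepatocyte markers and of 9 neutrophil markers on each array, by group (x axis), with symbols for the replicates. Tumor-bearing lungs are lower than control lungs for the 8 genes and higher for the neutrophil markers, and the hepatocyte markers are high in lung tumor array 1 and lung control array 3.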

How the data were processed

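RNA of lung and liver from 3 tumor-bearing and 3 control mice was hybridised to Affymetrix mouse arrays, 12 in all. The authors deposited log2 expression values, 1 per probe set and array. The submitters' processing notes name GCRMA and limma, with no version, and their settings are not stated in the labels. GCRMA corrects background by probe sequence and normalizes arrays by quantiles, so it sets a shared lowest value (2.044 here, with 26.7% to 28.5% of each array's values within 0.05 of it) and can compress differences of dim probe sets. No scan date or batch is in the labels. Precision is limited by how few arrays each group has.

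Of 22626 probe sets, 20380 were listed with 1 gene, 691 with several and 1555 with none; only the first were used for genes. Each of 12393 genes was represented by its probe set of highest mean over the 12 arrays. A gene entered a test with limma 3.58.1 in R 4.3.3 (lmFit, eBayes) if 3 or more arrays of that fit were above 4 (log2), with Benjamini-Hochberg adjustment over all genes tested and a threshold of 0.05. Every adjusted p is from limma. Tumor-bearing and control arrays were compared within each tissue on 6 arrays, the 2 changes as an interaction on 12 arrays, and control lung with control liver on 6. The p-values measure the spread between these samples.

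Named are the 10 genes; of each pathway list the genes past the threshold and the 2 with the largest absolute change in each tissue; of the cell type markers those past the threshold; and the 5 genes most correlated with the mean of the 8 genes. Keap1, Bach1, Trib3, Atf4, Ddit3 and the other single cell type markers lie outside this rule and were chosen after their values were seen. The genes, lists and tests were chosen with earlier results of these data known. Alternatives covered the filter, the probe sets, further normalization, other thresholds, leaving out each array, blocking on the replicate number, weighting the arrays, fitting all 12 arrays together and the options of eBayes. Same-numbered tumor and control arrays correlated at -0.363 to 0.285 in their deviations from group means, and same-numbered lung and liver arrays at 0.024 to 0.086. No label says whether a number marks a mouse, and these correlations cannot settle it. The numbers were not used as pairs in the main tests. Tests were tested on simulated data with known changes. Promoter windows are RefSeq's for GRCm38.p6.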

Additional observations from a re-analysis of the deposited data

Results flagged for a closer look

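For 5 of the 106 genes of the pathway lists tested, the 8 genes included, the change in tumor-bearing mice differed between lung and liver in the interaction test. That is 4.72%, against 1.55% of all 8433 genes. The lists were chosen with earlier results of these data known, so the 2 shares are a description and not a test. The 5 genes are listed for a closer look. Hmox1 differed by -1.41 (limma adjusted p = 0.0407), Nfe2l2 by -0.64 (adjusted p = 0.0407) and Osgin1 by -2.39 (adjusted p = 0.0234), each with a lower value in tumor-bearing lungs and a higher one in tumor-bearing livers. Slc40a1 differed by 1.71 (adjusted p = 0.0187), being higher in tumor-bearing mice in both tissues and more so in lung. Trib3, an ATF4 target that was too dim to be tested in lung, differed by -2.12 (adjusted p = 0.0353). All its lung values were under 4 (log2), so Trib3 entered this fit, and the count of 5, only through liver arrays. It read 2.33, 2.44 and 2.51 in tumor-bearing lungs, against 3.48, 3.88 and 3.71 in control lungs, and 5.60, 5.58 and 4.76 in tumor-bearing livers, against 3.88, 4.96 and 4.54 in control livers. The Trib3 call ended in 10 of the 12 fits that left out 1 array (adjusted p from 0.0209 to 0.0833), without a filter on low values (0.0738), with the mean of all its probe sets (0.0600), after a further quantile normalization (0.0625) and without both hepatocyte-rich lung arrays (0.111), and its lung values lie near the lowest value of the arrays.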

How the results depend on the processing

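No result that passed its test took the other sign under any alternative. Of the values of the 8 genes under alternatives, 3 of 151 took the other sign in lung (Nqo1, Gclm), 9 of 144 in liver (Txnrd1, Srxn1, Aox1, Gsr) and 3 of 152 in the difference between tissues (Txnrd1); none of these had passed the test. The count of the 8 genes called in lung was 1 (Aox1) with all 12 arrays in 1 fit and 2 at an unadjusted p, instead of 0. In liver it was 1 (Nqo1) with all 12 arrays in 1 fit and 3 at an unadjusted p, instead of 0. In the difference between tissues it was 0 without a filter on low values, and 0 to 1 with 1 array left out, instead of 1. Genes called in lung numbered 58, against 11 without a filter, 99 with array weights, 220 with all 12 arrays in 1 fit, 155 at an adjusted p of 0.1, 1042 at an unadjusted p, 5 to 33 with 1 array left out and 0 without both lung arrays rich in hepatocyte transcripts. In liver 144 were called, against 62 without a filter, 351 with a filter at 6, 85 after a further quantile normalization, 302 with an eBayes trend, 653 with all 12 arrays in 1 fit, 828 at an adjusted p of 0.1, 1997 at an unadjusted p and 0 to 1 with 1 array left out. In the difference between tissues 131 were called, against 57 to 145 with 1 array left out and 64 without both hepatocyte-rich lung arrays. With the replicate number as a block 1 gene was called in lung and 0 in liver, among them 0 of the 8, and the Gsta3, Slc40a1, Chac1 and Ggct calls were lost. No label says that a number pairs a tumor-bearing with a control mouse, so whether this block is apt cannot be told. As a random block over lung and liver, the Hmox1 difference stayed called (adjusted p = 0.0359). With 3 arrays a group, differences of the size seen in Gclc or Gsr could not be told from the spread, and dim probe sets sit near the lowest value.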
